A study of Mus musculus with 19 samples.

Results

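The genes described here are 30 genes of fatty acid oxidation and ketone body formation, of 35274 genes listed in the tables. They were chosen by symbol, from knowledge of the pathway, and all 30 passed the filter on low counts that left 16387 genes for testing. By the location of their enzymes 21 are mitochondrial, 4 peroxisomal, 3 work in both and 2 are cytosolic. RNA was sequenced from mouse liver cells labelled as hepatocytes, and every animal had the genotype OPN-CreERT2;Rosa26R-mT/mG. This combines a tamoxifen-inducible Cre, driven by the osteopontin promoter, with a reporter that Cre switches for good from membrane tdTomato (red) to membrane GFP (green). GREEN samples were hepatocytes of livers with chronic injury that the labels call DR-derived, an abbreviation they do not spell out. RED samples were native tdTomato hepatocytes of livers with chronic injury, and CTL samples were native hepatocytes of healthy control livers. The injury, the ages and the sexes were not given in the sources used here. Each group had 5 samples, called biological replicates. Whether any of them share an animal is not stated, so the p-values below measure the spread between these samples. The libraries of GREEN 3 and GREEN 4 carry the same code number (4), and the repeat libraries of RED 2, of RED 3 and of RED 4, each counted as 1 sample, likewise share their code. If GREEN 3 and GREEN 4 are also the same animal, GREEN has 4 and not 5 independent samples and its p-values are too small, and counts without one or the other are given below.

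In the liver, long-chain fatty acids enter mitochondria as carnitine esters, and repeated rounds of dehydrogenation, hydration, a second dehydrogenation and thiolysis shorten them to acetyl-CoA. Electrons pass through the electron transfer flavoprotein to the respiratory chain, and in fasting much of the acetyl-CoA becomes ketone bodies for other organs. Peroxisomes shorten very long and branched chains first. The nuclear receptor PPAR-alpha, a sensor of fatty acids that binds DNA with RXR, induces much of the pathway in mouse hepatocytes.

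The DNA element that the PPAR-alpha and RXR pair is known to bind is a direct repeat of the half-site AGGTCA with 1 base between, so the promoters of the members were searched for it. RefSeq promoter windows (GRCm38.p6) of 300 bases, with 250 before and 50 from the transcript start on, were matched for 27 of the 30 members, with 2 windows for Bdh1. Acaa2, Crat and Decr1 were not matched. The letters AGGTCA, any base, AGGTCA were searched on both strands with up to 2 of the 12 fixed letters differing. It was found for 4 of the 27 members, against 4.4% of 27025 genes with such a window. With at most 1 differing letter it was found for 1 of the 27, Acot12, against 0.644% of all genes. The 4 windows are printed 5′ to 3′ on the strand of the gene, because they hold the members' closest matches, and the match is in capitals. They are Acot12 (chr13:91741271-91741570, plus strand), Echs1 (chr7:140116372-140116671, minus strand), Etfa (chr9:55512194-55512493, minus strand) and Slc25a20 (chr9:108661886-108662185, plus strand). In Acot12 and Etfa the match reads on the other strand.
Acot12: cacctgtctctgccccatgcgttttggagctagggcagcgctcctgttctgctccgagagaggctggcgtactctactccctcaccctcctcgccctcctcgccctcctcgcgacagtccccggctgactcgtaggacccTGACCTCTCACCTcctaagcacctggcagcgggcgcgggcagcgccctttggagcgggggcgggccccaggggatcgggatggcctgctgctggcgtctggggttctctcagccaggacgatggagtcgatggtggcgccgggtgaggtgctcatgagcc
Echs1: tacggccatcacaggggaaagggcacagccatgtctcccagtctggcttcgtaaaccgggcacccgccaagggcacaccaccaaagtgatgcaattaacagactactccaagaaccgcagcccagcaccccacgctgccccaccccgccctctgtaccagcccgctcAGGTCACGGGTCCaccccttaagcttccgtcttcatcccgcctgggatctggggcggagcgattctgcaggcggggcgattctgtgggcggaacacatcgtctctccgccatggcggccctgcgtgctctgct
Etfa: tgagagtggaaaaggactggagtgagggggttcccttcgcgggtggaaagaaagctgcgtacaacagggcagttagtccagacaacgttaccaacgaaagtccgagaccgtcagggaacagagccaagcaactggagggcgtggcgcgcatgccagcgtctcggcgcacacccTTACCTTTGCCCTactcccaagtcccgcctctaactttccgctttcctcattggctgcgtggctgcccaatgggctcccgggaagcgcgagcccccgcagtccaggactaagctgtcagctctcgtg
Slc25a20: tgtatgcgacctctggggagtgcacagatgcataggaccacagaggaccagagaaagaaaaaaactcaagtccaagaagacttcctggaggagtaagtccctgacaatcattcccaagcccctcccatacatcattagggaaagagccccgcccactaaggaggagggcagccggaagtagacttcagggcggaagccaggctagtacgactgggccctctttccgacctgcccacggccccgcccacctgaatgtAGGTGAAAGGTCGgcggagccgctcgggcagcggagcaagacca
A match describes these letters in this window and says nothing of binding, and a window without one says nothing of the receptor either. Hadha and Hadhb, which encode the alpha and beta subunits of the mitochondrial trifunctional protein, lie head to head on chromosome 5 with 85 bases between the annotated genes. The Hadhb window (chr5:30155003-30155302, plus strand) is shown with those 85 bases in capitals. Their bounds are those of the GENCODE M21 genes. The RefSeq window of Hadha (chr5:30154931-30155230, minus strand) places the Hadha start outside this stretch, within the annotated Hadha gene.
Hadhb: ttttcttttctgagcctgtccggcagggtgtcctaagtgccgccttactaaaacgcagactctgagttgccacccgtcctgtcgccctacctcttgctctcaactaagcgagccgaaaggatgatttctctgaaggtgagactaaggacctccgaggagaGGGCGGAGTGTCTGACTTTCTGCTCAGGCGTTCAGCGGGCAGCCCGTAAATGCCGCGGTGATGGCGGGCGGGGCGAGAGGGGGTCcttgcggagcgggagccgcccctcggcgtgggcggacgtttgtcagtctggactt

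Levels below are CPM, estimated counts scaled to a common library size that TMM corrects, a scaling that assumes most genes do not differ. Totals were 22442607 to 34216824 estimated counts in the 10 libraries of experiment 1, made with a stranded poly(A) kit, and 38061859 to 44177627 in the 9 libraries of experiment 2, made with a kit that removes ribosomal RNA. Each sample entered with 1 library, so that each group had 2 of experiment 1 and 3 of experiment 2. Beside the members, 35 mature hepatocyte markers summed to 61920 to 151600 CPM in GREEN samples, 175500 to 252800 in RED samples and 217100 to 324800 in CTL samples, and none was at 0 in a whole group. RNA of these markers was thus present in every group, with the lowest level in GREEN. The 25 biliary markers measured summed to 1066 to 10900 CPM in GREEN samples, 417.6 to 1558 in RED samples and 270.2 to 685.8 in CTL samples, and Mmp7, Sctr and Cftr had no count in any CTL library. By the edgeR test given below, 23 were higher and 0 lower in GREEN versus CTL (median log2 fold change 6.97). In GREEN versus RED 20 were higher and 0 lower (median 4.92). Over all genes 29.5% were higher and 18.6% lower in GREEN versus CTL, and 9.68% and 3.22% in GREEN versus RED. The 20 endothelial markers summed to 596.7 to 1285 CPM in GREEN samples, 624.6 to 3217 in RED samples and 74.97 to 216.4 in CTL samples. The 20 stellate cell and matrix markers summed to 1256 to 3937 CPM in GREEN samples, 454.8 to 2637 in RED samples and 53.93 to 119.4 in CTL samples. The 20 macrophage markers summed to 226.8 to 829.5 CPM in GREEN samples, 187.4 to 2104 in RED samples and 135.1 to 193.9 in CTL samples. The part of other cells in the results below was not tested, and in bulk RNA fewer cells of a type and less RNA per cell cannot be told apart.

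Relative to the bulk of genes, GREEN hepatocytes had less RNA of most fatty acid oxidation genes than CTL hepatocytes, a direction that turned for 15 of the 17 members called when libraries were scaled by hepatocyte markers. Of the 30 members 17 were lower and 0 higher by edgeR's quasi-likelihood test with Benjamini-Hochberg adjustment at 0.05. That is 56.7% of the members called lower, against 18.6% of all genes called lower, 29.5% called higher and 48.1% called in either direction. The median log2 fold change of the members was -0.70, against 0.11 over all genes tested, and 26 of 30 were below 0. CPM ranges of the 5 GREEN and the 5 CTL samples did not overlap for 10 members, all lower in GREEN (9.59% of all genes had such ranges with GREEN lower and 21% with GREEN higher). The hepatocyte markers differed more: 30 of 35 were lower, with a median of -1.30, and every member lay above that median.

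**Figure D1:**
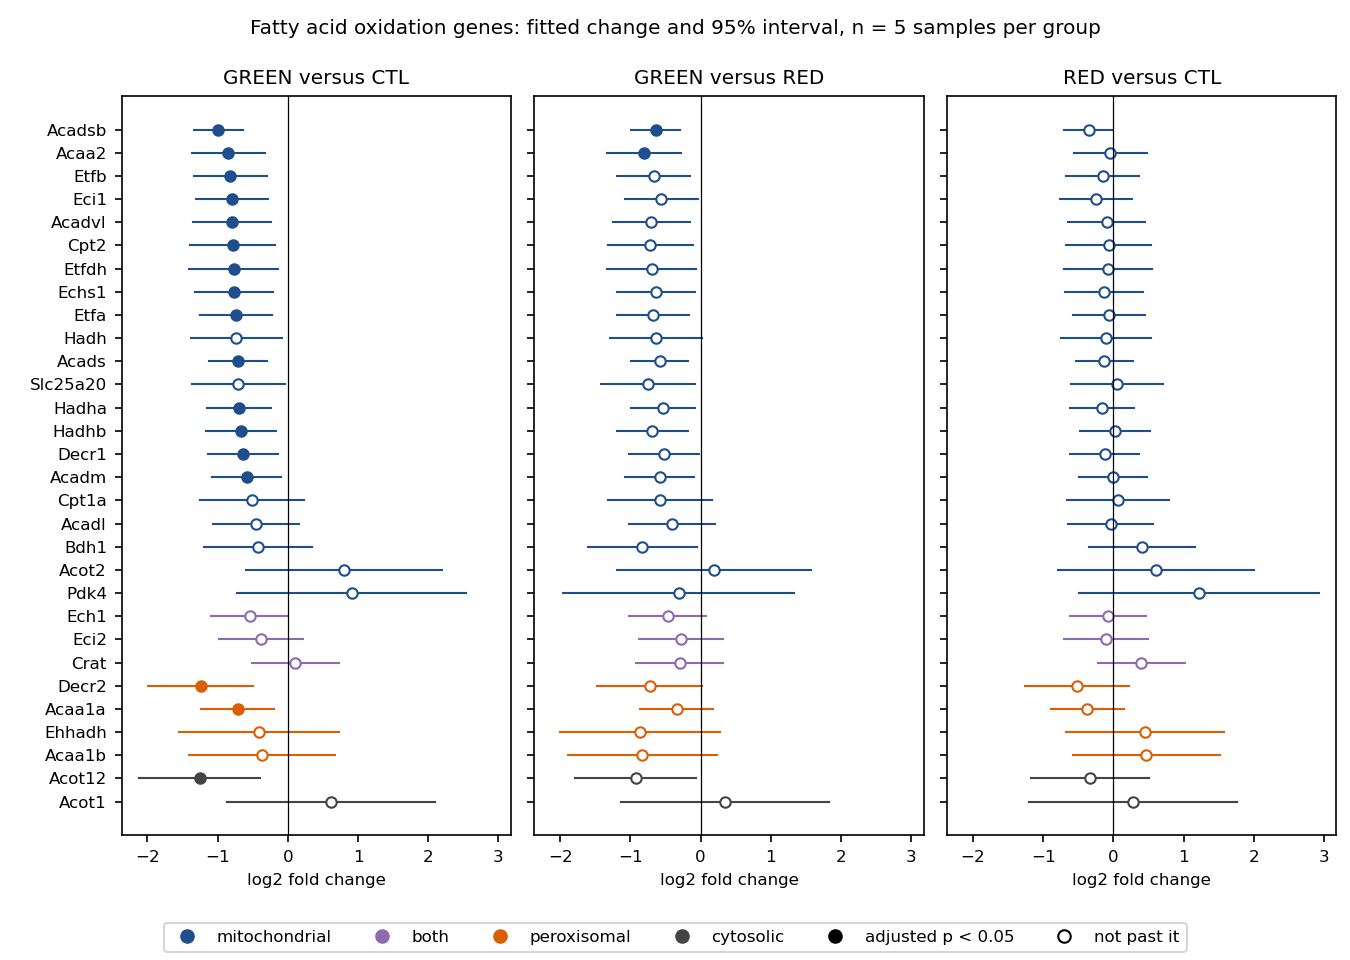
Fitted log2 fold change of each of the 30 members (points) with its 95% interval (lines), in GREEN versus CTL, GREEN versus RED and RED versus CTL, 5 samples per group. Filled points passed an adjusted p of 0.05 with TMM scaling: 17 in GREEN versus CTL, Acaa2 and Acadsb in GREEN versus RED, and 0 in RED versus CTL, where colours give the compartment. Scaled by hepatocyte markers, 15 members were higher in GREEN versus CTL and Eci2 and Acaa1a in GREEN versus RED. Most of all genes tested were higher in both comparisons with that scaling.

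The acyl-CoA dehydrogenases, which take the first electrons from fatty acids of successive chain lengths, held the member with the smallest adjusted p. Acadsb, which acts on short and branched chains and also in isoleucine breakdown, had 86.74, 90.98, 73.41, 61.36 and 72.21 CPM in GREEN samples 1 to 5, against 129.5 to 190.3 CPM in CTL samples (142.9, 129.5, 180.2, 190.3 and 135.9). All 5 GREEN samples were below all CTL samples. It fell by 0.99 on the log2 scale (SE 0.162, adjusted p = 0.00031), and its spread within groups was the smallest of the members (mean SD 0.23 in log2 CPM with the experiment effect removed). Acads, for short chains, averaged 80.8 ± 18.2 CPM in GREEN samples and 133.8 ± 15.3 CPM in CTL samples (SD, n = 5 each), again with no overlap, a log2 change of -0.71 (SE 0.191, adjusted p = 0.0075). Acadvl, for very long chains, had 314.1, 279.6, 161.2, 113.7 and 171.4 CPM in GREEN samples, against 342.8 to 370.1 CPM in CTL samples. The CTL samples lay within 1.08-fold of each other and the GREEN samples spread over 2.76-fold, all lower (log2 change -0.79, SE 0.257, adjusted p = 0.02). Acadm, for medium chains, was just past the threshold at -0.59 (adjusted p = 0.048). Acadl, for long chains, ranged over 83.44 to 144.7 CPM in GREEN samples and 105.6 to 207.2 CPM in CTL samples, and its change of -0.45 did not pass (adjusted p = 0.21).

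All 3 genes of electron transfer fell with TMM scaling and lay above 0 with hepatocyte marker scaling. Etfa and Etfb, the subunits of the flavoprotein, had log2 changes of -0.74 (SE 0.238, adjusted p = 0.021) and -0.82 (SE 0.243, adjusted p = 0.013), and Etfdh, the dehydrogenase that hands the electrons to ubiquinone, had -0.77 (SE 0.295, adjusted p = 0.044). GREEN and CTL ranges were apart for Etfb, with 84.03 to 161.4 CPM in GREEN samples against 192.9 to 280.7 CPM in CTL samples, and for Etfdh, with 95.34 to 205.6 CPM against 207.7 to 341.6 CPM.

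Of the 5 members of the later steps of the spiral 4 were lower, again with TMM scaling and not with hepatocyte marker scaling. Echs1, the enoyl-CoA hydratase of short chains, had a log2 change of -0.76 (adjusted p = 0.026). Hadha and Hadhb had nearly the same change, -0.70 (SE 0.214, adjusted p = 0.016) and -0.67 (SE 0.235, adjusted p = 0.031). Within single samples Hadha exceeded Hadhb by 0.75 to 0.96 in GREEN samples and by 0.65 to 1.11 in CTL samples, as a difference of log2 CPM with the experiment effect removed and no correction for length. Acaa2, the thiolase that releases acetyl-CoA, had the highest level per kb of transcript of all members in CTL samples. It had 409.7, 456.8, 269.7, 194.4 and 296.1 CPM in GREEN samples, against 611.4, 609.9, 607.9, 552.2 and 533.8 CPM in CTL samples. No GREEN sample reached the lowest CTL sample (log2 change -0.85, SE 0.244, adjusted p = 0.011). Hadh, the dehydrogenase of short 3-hydroxy chains, had -0.74 and missed the threshold (adjusted p = 0.058).

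Unsaturated chains need extra isomerases and reductases. Eci1, an isomerase, and Decr1, a reductase, had log2 changes of -0.80 (adjusted p = 0.014) and -0.64 (adjusted p = 0.035). Ech1 and Eci2, which also work in peroxisomes, had -0.54 and -0.39 and did not pass (adjusted p = 0.094 and 0.27).

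Entry into mitochondria was mixed. Cpt2, which re-forms the acyl-CoA inside, fell by 0.78 on the log2 scale (SE 0.282, adjusted p = 0.034). Slc25a20, the carnitine carrier, had a change of -0.70 and did not pass (adjusted p = 0.075). Cpt1a, the rate-limiting outer membrane transferase, had 424.9, 271.9, 161.9, 133.7 and 237.8 CPM in GREEN samples, against 278.6, 341.0, 408.0, 343.1 and 371.6 CPM in CTL samples. GREEN 1 was above every CTL sample and the other GREEN samples were below them all, and the change of -0.51 did not pass (SE 0.344, adjusted p = 0.24). Crat, which moves short acyl groups to and from carnitine, averaged 31.3 ± 9.05 CPM in GREEN samples and 29.0 ± 11.6 CPM in CTL samples (SD, n = 5 each), with a fitted change of 0.11 (95% interval -0.51 to 0.72, adjusted p = 0.79).

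Of the peroxisomal members Decr2 and Acaa1a were lower and Ehhadh and Acaa1b did not pass. Decr2, the peroxisomal dienoyl-CoA reductase, had 110.3, 89.9, 45.3, 38.12 and 72.53 CPM in GREEN samples, against 136.1, 200.7, 210.1, 140.1 and 153.8 CPM in CTL samples, without overlap. It fell by 1.24 on the log2 scale (SE 0.351, adjusted p = 0.01). Acaa1a, a peroxisomal thiolase, had -0.71 (SE 0.243, adjusted p = 0.027). Ehhadh, the bifunctional enzyme, and Acaa1b, the other thiolase, had -0.41 (95% interval -1.55 to 0.73) and -0.36 (95% interval -1.40 to 0.68). The ratio of the compartments overlapped between groups, as the 4 peroxisomal members held 17.5 ± 4.9% of the summed CPM of mitochondrial and peroxisomal members in GREEN samples, 18.7 ± 4.26% in RED samples and 16.9 ± 3.42% in CTL samples (SD, n = 5 each). The median change was -0.71 for the 21 mitochondrial members, with 14 lower, and -0.56 for the 4 peroxisomal members, with 2 lower. The difference between compartments was not tested.

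**Figure D2:**
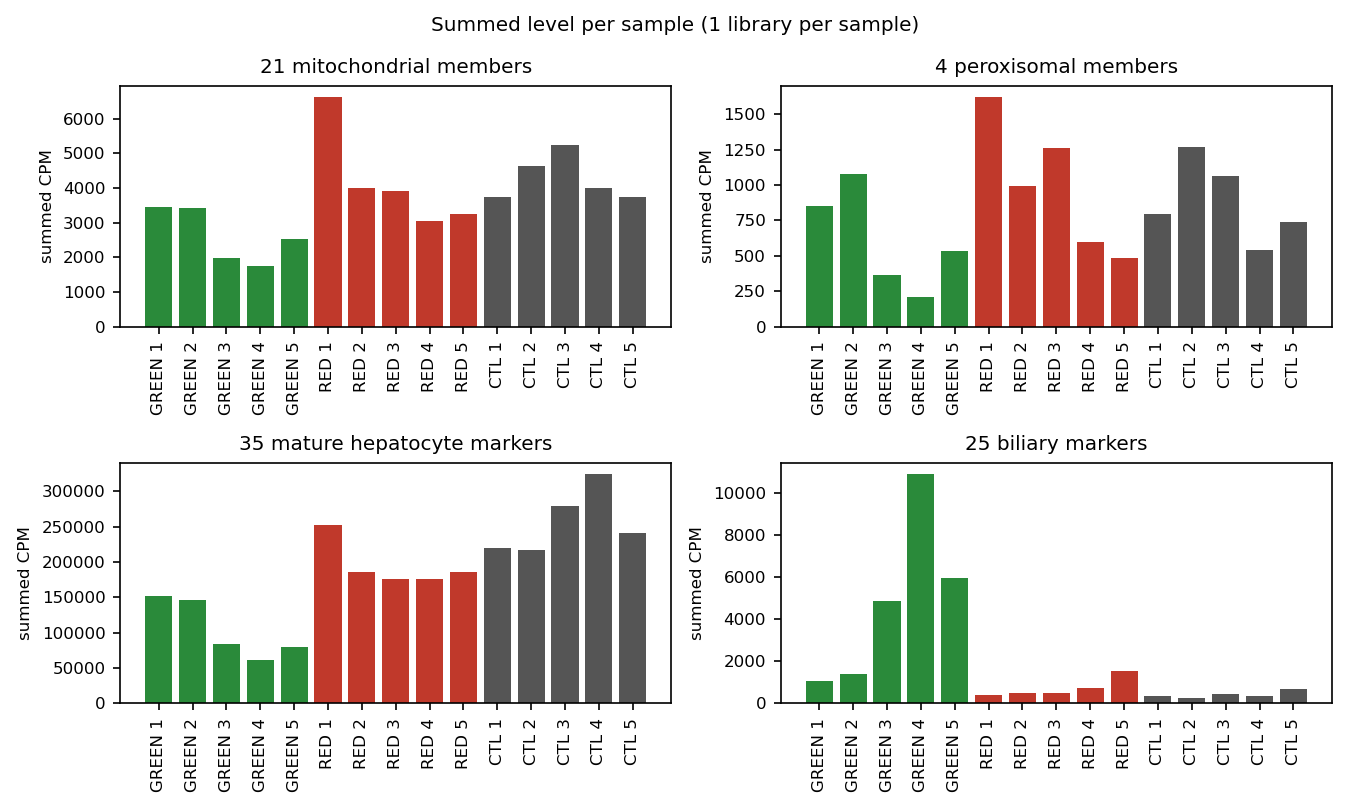
Summed CPM per sample of the 21 mitochondrial members, the 4 peroxisomal members, 35 mature hepatocyte markers and 25 biliary markers, with 1 bar per sample and GREEN, RED and CTL samples in their own colours. GREEN 3, 4 and 5 had the lowest mitochondrial sums (1758 to 2521 CPM) and the highest biliary sums (4840 to 10900 CPM).

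Acot12, a cytosolic thioesterase that splits acetyl-CoA, had 83.48, 69.14, 27.71, 17.48 and 39.31 CPM in GREEN samples, against 84.84, 129.4, 137.9, 91.61 and 107.5 CPM in CTL samples. The highest GREEN sample lay just under the lowest CTL sample, and the log2 change was -1.26 (SE 0.401, adjusted p = 0.019), the lowest of the members. Bdh1, which interconverts the ketone bodies acetoacetate and 3-hydroxybutyrate, had a change of -0.42 and did not pass (adjusted p = 0.35). Acot1 and Acot2, long-chain thioesterases of the cytosol and of mitochondria, and Pdk4, the kinase that blocks pyruvate dehydrogenase when fat is burned, had fitted changes of 0.62, 0.80 and 0.91. Their 95% intervals ran from -0.86 to 2.10, from -0.59 to 2.20 and from -0.72 to 2.54, and none passed.

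The count in GREEN versus CTL moved with scaling and with 3 GREEN samples. With libraries scaled by their totals the members lower were 1 (Acadsb) and those higher 1 (Crat), and with libraries scaled by the hepatocyte markers 15 were higher and 0 lower. Over all genes the calls were 4839 higher and 3051 lower with TMM, 10077 and 467 with library totals, and 12930 and 97 with the hepatocyte markers. The median of all genes stood at 0.83 and 1.48 in these other scalings, and the members' median, at -0.01 and 0.57, stayed below it. GREEN 3, 4 and 5 also had the lowest hepatocyte and the highest biliary sums. Without GREEN 3 the count was 10 lower, without GREEN 4, of the same code number, it was 8 and without GREEN 5 it was 9; without all 3, as without GREEN 4 and 5, Acadsb alone was lower. The experiments also differed, with 19 members lower in experiment 1 alone, whose GREEN libraries were GREEN 4 and 5, and 1 (Acadsb) in experiment 2 alone, so kit and samples cannot be told apart there. Of the 35 hepatocyte markers 32 were lower in experiment 1 alone and 6 in experiment 2 alone. Without GREEN 4 and 5 the markers lower were 12, and without GREEN 3, 4 and 5 they were 4. Calls over all genes are not given here for fits without some samples or of 1 experiment. The member counts of those fits are therefore not read as a result about the members.

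**Figure D3:**
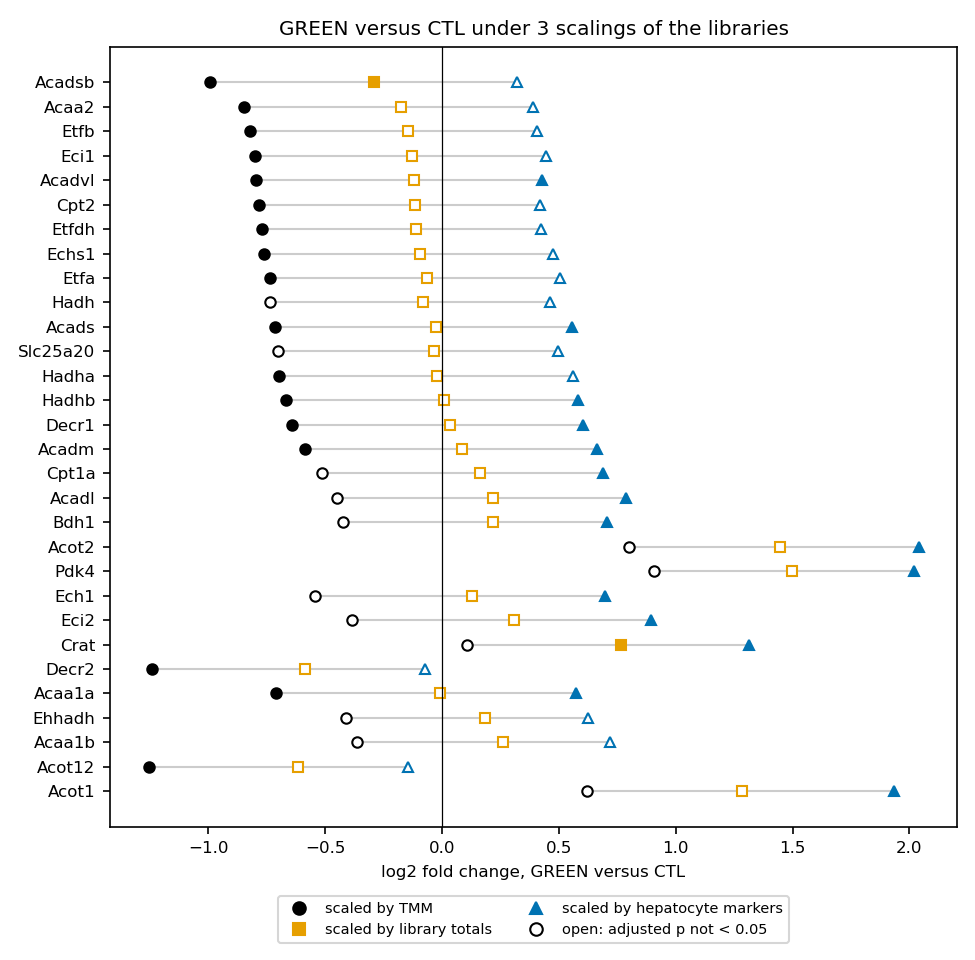
Log2 fold change in GREEN versus CTL of each member with libraries scaled by TMM, by library totals and by the hepatocyte markers; filled symbols passed an adjusted p of 0.05. Relative to the hepatocyte markers all members but Decr2 and Acot12 lay above 0, and 15 passed as higher. With that scaling most of all genes tested passed as higher too.

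Within injured livers, Acadsb and Acaa2 were lower in GREEN than in RED hepatocytes, and above 0 when libraries were scaled by hepatocyte markers. Of the 30 members 2 were lower and 0 higher, 6.67% called lower against 3.22% of all genes called lower, 9.68% called higher and 12.9% called in all, so the members' share was not far from the background. The median was -0.63, against -0.02 over all genes, and 28 members were below 0. Of these 28, 17 had an unadjusted p under 0.05 by edgeR's test. Over all genes 5130 of 16387 had such a p, in either direction. Hepatocyte markers had a median of -0.89, with 3 of 35 lower. Acadsb had 86.74, 90.98, 73.41, 61.36 and 72.21 CPM in GREEN samples, against 167.7, 102.8, 101.2, 115.9 and 122.5 CPM in RED samples, a fall of 0.64 on the log2 scale (SE 0.161, adjusted p = 0.022). For Acaa2 the 5 GREEN samples, at 194.4 to 456.8 CPM, lay below the RED samples, at 870.7, 472.7, 524.4, 476.1 and 473.0 CPM, a fall of 0.80 (SE 0.245, adjusted p = 0.046). Both genes, and Acads, had ranges that did not overlap, which 2.25% of all genes showed with GREEN lower and 6.66% with GREEN higher. Acads came next, with 59.53 to 99.43 CPM in GREEN samples against 99.45 to 187.1 CPM in RED samples, and did not pass (-0.58, adjusted p = 0.059).

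Among the other members in GREEN versus RED, Acot12 had the lowest value at -0.93 (95% interval -1.78 to -0.07, adjusted p = 0.13), then Ehhadh at -0.86 and Bdh1 and Acaa1b at -0.83, none of which passed. The peroxisomal median was -0.77 and the mitochondrial one -0.64. Acot1 and Acot2 were above 0 (0.34 and 0.19). The 2 calls were fragile: 0 members passed without GREEN 5 or without RED 1, 11 without GREEN 1 and 7 without GREEN 2. Only Acadsb passed without GREEN 3, GREEN 4, RED 3, RED 4, RED 5 or any single CTL sample. In experiment 1 alone 18 were lower, as were 28 of 35 hepatocyte markers, and in experiment 2 alone 0 of either. Calls over all genes are not given here for fits without a sample or of 1 experiment. The member counts of those fits are therefore not read as a result about the members. GREEN and RED libraries share code numbers, and with that number as a replicate block neither gene passed (Acadsb -0.54, adjusted p = 0.074; Acaa2 -0.55, adjusted p = 0.083). That block joins GREEN 5 with RED 5, whose summed CPM of 4 Y-linked genes were 2.974 and 156.5. By scaling, 0 passed with library totals, and with the hepatocyte markers Eci2 and Acaa1a were higher. The calls over all genes were 1586 higher and 528 lower with TMM, 4289 and 40 with library totals, and 8947 and 1 with the hepatocyte markers.

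No member passed between RED hepatocytes of injured livers and CTL hepatocytes. By edgeR's quasi-likelihood test 0 of 30 passed, against 16.2% of all genes (14.2% higher, 1.99% lower), and DESeq2 and limma-voom also called 0. The median was -0.07, against 0.05 over all genes, with 20 members below 0, and the ranges of RED and CTL samples overlapped for all 30 (10.6% of all genes had separate ranges with RED higher and 1.42% with RED lower). Acadm averaged 248.7 ± 80.2 CPM in RED samples and 248.2 ± 66.1 CPM in CTL samples (SD, n = 5 each), with a 95% interval of the log2 change from -0.49 to 0.49. Cpt1a averaged 365.4 ± 171.3 CPM in RED samples and 348.5 ± 47.5 CPM in CTL samples (interval -0.67 to 0.80). Differences within such intervals were not detectable with 5 samples per group. Acadsb alone of the members had an unadjusted p under 0.05 (-0.35, adjusted p = 0.18), against 4327 of 16387 genes in either direction. Without RED 1, the RED sample with the highest level in nearly every mitochondrial member, Acadsb and Decr2 were lower (-0.54 and -0.98, adjusted p = 0.041 and 0.049). Experiment 1 alone and experiment 2 alone each called 0.

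Among the members Pdk4, Acot1, Acot2, Ehhadh and Acaa1b varied most within groups, by the SD of log2 CPM with the experiment effect removed. Acot1 had 10.05, 9.431, 10.15, 16.64 and 10.19 CPM in GREEN samples, 9.335, 11.73, 10.37, 7.31 and 5.485 CPM in RED samples, and 4.261, 15.44, 14.88, 0.171 and 1.741 CPM in CTL samples. Pdk4 had 13.83, 53.73, 24.75, 25.29 and 36.94 CPM in GREEN samples, 68.74, 14.72, 29.41, 25.47 and 63.18 CPM in RED samples, and 14.6, 42.8, 19.49, 1.824 and 1.269 CPM in CTL samples. CTL samples thus spanned 90.3-fold for Acot1 and 33.7-fold for Pdk4, and 40.7-fold for Acot2, while GREEN samples spanned 1.76-fold, 3.89-fold and 1.78-fold. Ehhadh had 258.4, 310.0, 83.29, 64.4 and 158.1 CPM in GREEN samples, 582.5, 312.2, 379.3, 147.8 and 162.4 CPM in RED samples, and 148.0, 343.1, 414.1, 130.8 and 123.7 CPM in CTL samples. In each group the samples with the lowest Ehhadh were those whose 4 Y-linked genes (Ddx3y, Eif2s3y, Kdm5d and Uty) summed to over 50 CPM: GREEN 3 and 4, RED 4 and 5, and CTL 1, 4 and 5. Their sums were 116.9 and 126.4 CPM in GREEN samples, 140.1 and 156.5 CPM in RED samples and 144.1 to 198.0 CPM in CTL samples, and at most 16.69 CPM in every other sample. Ehhadh was not alone in this order. Crat, Ech1, Acadl, Hadh, Eci1, Decr1, Echs1, Etfb, Etfdh, Acot12 and Decr2 also had their lowest levels in these samples in every group. Hadh, for one, had 225.5, 203.5 and 226.9 CPM in CTL 1, 4 and 5, against 381.1 and 363.5 CPM in CTL 2 and 3. With a term for this division, added after the values were seen, 26 members were lower in GREEN versus CTL and 22 in GREEN versus RED, and Decr2 was lower in RED versus CTL. In that fit 31 of 35 mature hepatocyte markers were also lower in GREEN versus CTL. The share of all genes called in that fit is not given here, so these counts are not read as a result about the members. What else divides these samples was not tested.

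**Figure D4:**
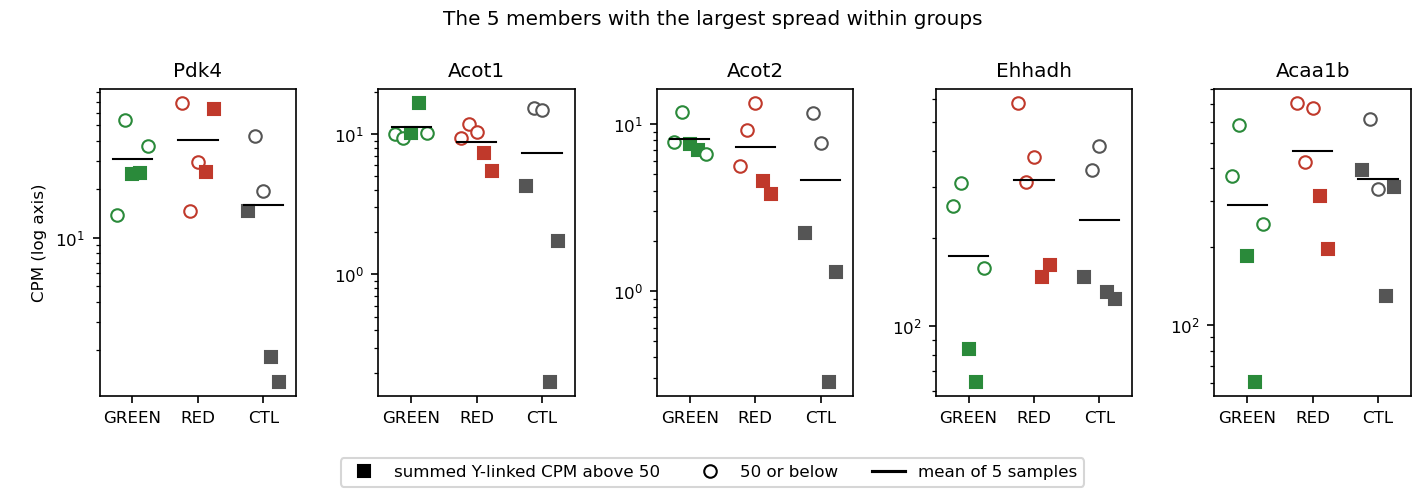
CPM of Pdk4, Acot1, Acot2, Ehhadh and Acaa1b in each sample on log axes, with the mean of 5 samples as a line. Squares mark samples whose summed Y-linked CPM was above 50. For Ehhadh these are the lowest samples of every group, as they were for other members not shown, such as Hadh and Decr2.

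Per kb of transcript, the members covered a wide range. In CTL samples the order began with Acaa2 at 384.6 CPM per kb, Etfb at 258.7 and Acaa1b at 214.3, and ended with Crat at 6.87, Pdk4 at 4.59, Acot1 at 3.21 and Acot2 at 2.11. In GREEN samples Acaa2 had 214.6 CPM per kb, Acaa1b 171.4 and Etfb 144.7, and Acot2 had the lowest at 3.71. Some of these levels are uncertain because members share 31-base words with other genes: 50.1% of the words of Acaa1b, 49.9% of Etfb, 37.8% of Acot2, 33.2% of Acadvl, 23.7% of Hadhb, 23.4% of Acaa1a and 22.8% of Acot1. Acaa1a with Acaa1b, and Acot1 with Acot2, share most of theirs with each other.

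Levels also differed between the libraries of the 2 experiments. In the 4 samples with a library of each kit (RED 2, RED 3, RED 4 and CTL 5), 21 of 30 members were lower in the experiment 2 library of all 4 samples and 2, Acot2 and Acaa1b, were higher in all 4. The share over all genes is not given here, so this count is not read as a result about the members. The experiments also differed in depth, so kit and depth cannot be told apart. Slc25a20 had a median log2 ratio of -0.76, Hadhb of -0.59 and Ech1 of -0.55, while Acot2 had 0.78 and Hadha 0.01. Hadha and Hadhb therefore stood at different ratios to each other in the 2 experiments, and experiment was a term in every test that used both.

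**Figure D5:**
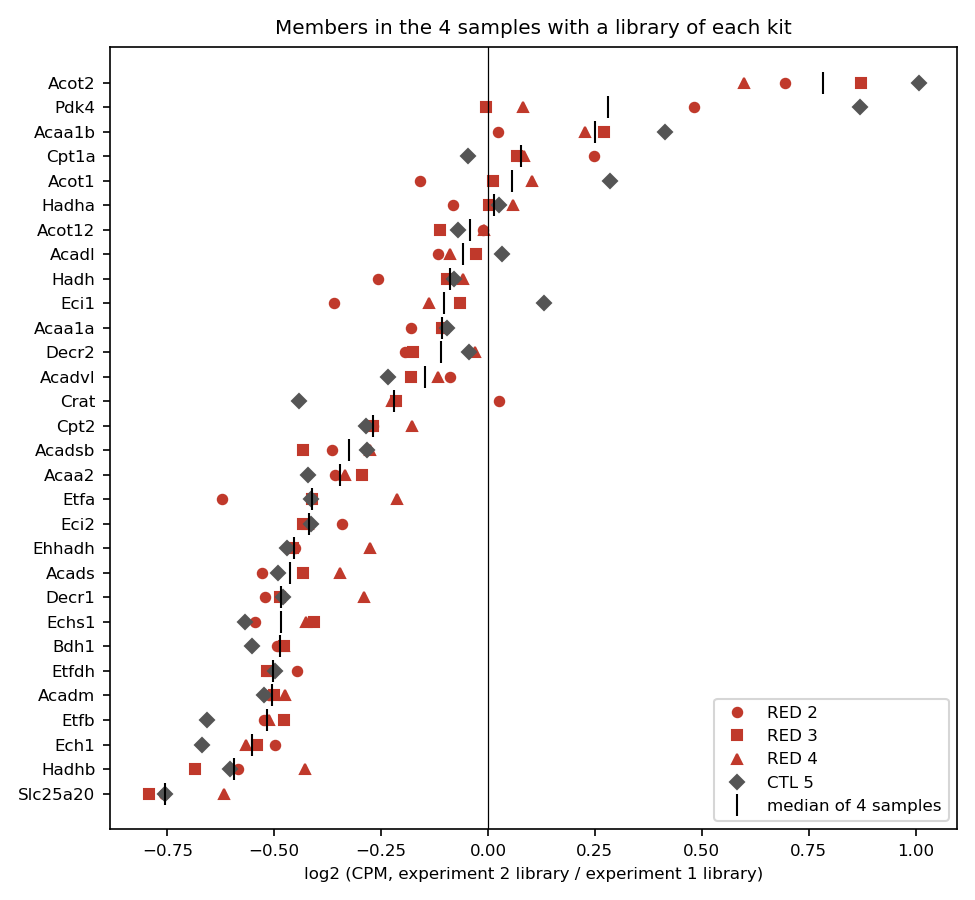
Log2 ratio of CPM in the experiment 2 library over the experiment 1 library for each member, in the 4 samples with both libraries (symbols), with their median (bar). Slc25a20 lies lowest at a median of -0.76 and Acot2 highest at 0.78.

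Other genes of the pathway were followed as lists, again with TMM scaling, under which 29.5% of all genes were called higher and 18.6% lower in GREEN versus CTL, 9.68% and 3.22% in GREEN versus RED, and 14.2% and 1.99% in RED versus CTL. With library totals and with hepatocyte marker scaling, higher calls in GREEN versus CTL and GREEN versus RED were a smaller share of each list than of all genes tested. Of 34 other mitochondrial fatty acid and ketone body genes 3 were higher and 22 lower in GREEN versus CTL (median -0.75), 2 and 4 in GREEN versus RED (median -0.60), and 2 and 1 in RED versus CTL (median -0.28). In GREEN versus CTL this became 4 higher and 3 lower with library totals (median -0.09), 13 and 0 with hepatocyte marker scaling (median 0.49), and 2 and 3 without GREEN 3, 4 and 5. In GREEN versus RED it became 3 and 0 with library totals and 6 and 0 with hepatocyte marker scaling. Oxct1, which lets tissues other than hepatocytes burn ketone bodies, averaged 24.2 ± 15.1 CPM in GREEN samples, 5.84 ± 3.64 CPM in RED samples and 1.40 ± 0.357 CPM in CTL samples (SD, n = 5 each). It was higher in every comparison, by 3.99 (adjusted p = 7.2e-05) in GREEN versus CTL, 1.98 (adjusted p = 0.017) in GREEN versus RED and 2.01 (adjusted p = 0.011) in RED versus CTL. These calls held in both other scalings, and without GREEN 3, 4 and 5 the call in GREEN versus RED was lost (0.72, adjusted p = 1). Acsm1, a medium-chain acyl-CoA synthetase, averaged 131.4 ± 48.97 CPM in GREEN samples, 239.9 ± 47.2 CPM in RED samples and 417.4 ± 73.7 CPM in CTL samples, and was lower in each with TMM. With hepatocyte marker scaling it had -0.46 in GREEN versus CTL (adjusted p = 0.052), 0.01 in GREEN versus RED and -0.47 in RED versus CTL, none past the threshold. Of 43 other peroxisomal genes 1 was higher and 31 lower in GREEN versus CTL (median -0.86), 1 and 8 in GREEN versus RED (median -0.64), and 0 and 1 in RED versus CTL (median -0.26). In GREEN versus CTL this became 2 higher and 4 lower with library totals (median -0.19), 15 and 0 with hepatocyte marker scaling (median 0.36), and 1 and 2 without GREEN 3, 4 and 5. In GREEN versus RED it became 1 and 0 with library totals and 5 and 0 with hepatocyte marker scaling. Pex5, the import receptor of peroxisomal enzymes, averaged 74.6 ± 26.8 CPM in GREEN samples, 108.8 ± 10.1 CPM in RED samples and 131.9 ± 20.5 CPM in CTL samples, a change of -0.86 in GREEN versus CTL (adjusted p = 0.0014) that turned to 0.45 with hepatocyte marker scaling (adjusted p = 0.051).

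PPAR-alpha, its partners and target genes made up a list of 33 genes tested. As for the lists above, its higher calls for GREEN in the other scalings were a smaller share than over all genes tested. In GREEN versus CTL 3 were higher and 11 lower (median -0.72), in GREEN versus RED 1 and 2 (median -0.76), and in RED versus CTL 1 and 0 (median -0.16). In GREEN versus CTL this became 5 higher and 2 lower with library totals (median 0.01), 10 and 0 with hepatocyte marker scaling (median 0.50), and 0 and 1 without GREEN 3, 4 and 5. In GREEN versus RED it became 1 and 0 with library totals and 5 and 0 with hepatocyte marker scaling. Ppara itself averaged 49.3 ± 39.8 CPM in GREEN samples, 91.1 ± 52.4 CPM in RED samples and 141.2 ± 27.8 CPM in CTL samples (SD, n = 5 each). It was lower in GREEN versus CTL by a log2 change of -1.56 (SE 0.504, adjusted p = 0.02), and did not pass in GREEN versus RED (-0.94, adjusted p = 0.22) or RED versus CTL (-0.62, adjusted p = 0.48). Its change in GREEN versus CTL did not pass with library totals (-0.91, adjusted p = 0.071), with hepatocyte marker scaling (-0.46, adjusted p = 0.2) or without GREEN 3, 4 and 5 (-0.71, adjusted p = 0.4). Fabp1, the fatty acid binding protein of the liver, averaged 816.1 ± 159.0 CPM in GREEN samples and 2709 ± 1676 CPM in CTL samples (log2 change -1.60, adjusted p = 0.00053, and -0.36, adjusted p = 0.23, with hepatocyte marker scaling). Slc27a1, a fatty acid transporter, averaged 32.6 ± 17.0 CPM in GREEN samples, 5.20 ± 1.94 CPM in RED samples and 6.78 ± 2.46 CPM in CTL samples, and was higher in GREEN versus RED (2.60, adjusted p = 0.0013) and GREEN versus CTL (2.22, adjusted p = 0.00066), also in both other scalings but in neither comparison without GREEN 3, 4 and 5. Cd36, which takes up fatty acids, was the gene higher in RED versus CTL, at 118.9 ± 38.5 CPM in RED samples and 14.7 ± 17.98 CPM in CTL samples (3.00, adjusted p = 0.0091). By the DESeq2 test, and in experiment 2 alone, no gene of the list was higher in RED versus CTL. Of 20 endothelial markers 20 were higher in RED versus CTL, and of 20 macrophage markers 19. The part of such cells in the Cd36 level was not tested.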

How the data were processed

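Gene-level estimated counts were deposited for 19 libraries of 15 samples. They were not normalized. The submitters' processing notes name kallisto 0.43.1 and GRCm38. How transcripts were summed to genes, and on which annotation, was not given in the sources used here. Columns of other samples were 0. Symbols for 98.8% of identifiers and positions came from GENCODE M21.

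Estimated counts were rounded. CTL 5, RED 2, RED 3 and RED 4 had a library of each kit, and the experiment 2 library was used. Genes were kept by filterByExpr and scaled by TMM, and all 3 groups were fitted with group and experiment as terms using edgeR 4.0.16 (R 4.3.3, quasi-likelihood F test, Benjamini-Hochberg adjustment, threshold 0.05). Alternatives used DESeq2 1.42.0 and limma 3.58.1. Intervals are 95%. On simulated data for GREEN versus RED (16387 genes) the test recovered 36 of 100 genes changed by 1 and 77 of 100 changed by 2 on the log2 scale, with 3 false calls. No other gene differed between groups in that simulation, while 2114 genes were called in the data. These rates therefore need not carry over to the data.

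All 30 members are described. Of other lists at most 4 genes per comparison, those with the lowest adjusted p past the threshold, and Ppara were eligible for naming. Members and lists were chosen with earlier results of these data known, so no test was made over a list.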

Additional observations from a re-analysis of the deposited data

Results flagged for a closer look

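Acaa2, Acads and Etfb stood out in RED 1, whose level lay far above the other 4 RED samples. Acaa2 had 870.7 CPM in RED 1 and 472.7 to 524.4 CPM in the others. Acads had 187.1 CPM in RED 1 and 99.45 to 114.3 CPM in the others, and Etfb had 357.2 CPM in RED 1 and 160.1 to 185.6 CPM in the others. These were 3 of 90 member and group combinations examined, and chance marks about 1 in 20.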

How the results depend on the processing

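In GREEN versus CTL, the 17 members called became 2 with library totals (1 higher, 1 lower), 15 higher with hepatocyte marker scaling, 1 in experiment 2 alone, 1 without GREEN 4 and 5, 1 without GREEN 3, 4 and 5, and 26 with a term for Y-linked CPM above 50; leaving out single samples gave 8 to 20. Mitochondrial and peroxisomal medians of -0.71 and -0.56 became -0.035 and 0.088 with library totals and 0.51 and 0.60 with hepatocyte scaling, and the mitochondrial one -0.28 without GREEN 3, 4 and 5. With library totals Acadm had 0.087, Decr1 0.035 and Hadhb 0.01. With hepatocyte scaling Acaa2 had 0.39, Acadm 0.66, Acads 0.56, Acadsb 0.32, Acadvl 0.43, Cpt2 0.42, Decr1 0.60, Echs1 0.47, Eci1 0.45, Etfa 0.51, Etfb 0.41, Etfdh 0.42, Hadha 0.56, Hadhb 0.58 and Acaa1a 0.57. These scalings moved the median of all genes to 0.83 and 1.48, against 0.11 with TMM, so the members' median stayed below that of all genes.

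In GREEN versus RED, the 2 members called became 0 with library totals, with only the 2 groups, in experiment 2 alone, without GREEN 4 and 5 and without GREEN 3, 4 and 5. They became 1 with no filter, 9 by DESeq2, 15 with the experiment 1 library of the 4 samples with both, 18 in experiment 1 alone, 22 with the Y-linked term and 2 higher with hepatocyte scaling, where Acaa2 had 0.14 and Acadsb 0.31; single samples left out gave 0 to 11. The medians of -0.64 (mitochondrial) and -0.77 (peroxisomal) became 0.31 and 0.15 with hepatocyte scaling and -0.10 and -0.026 without GREEN 3, 4 and 5, and the mitochondrial one -1.13 in experiment 1 alone. In RED versus CTL, 0 became 1 with only the 2 groups, 1 without GREEN 4 and 5, 1 without GREEN 3, 4 and 5 and 1 with the Y-linked term; single samples left out gave 0 to 2. The cause of these changes was not tested. Beyond TMM, library totals and hepatocyte marker scaling, calls over all genes are not given beside these counts. Those counts are therefore not read as a result about the members. The 3 settings without GREEN 3, 4 and 5, with the Y-linked term and with 3 code pairs were chosen after seeing the data. Over the alternatives, the 17 genes lower in GREEN versus CTL kept their call in 374 values, lost it in 101 and changed sign in 18.

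As for pairing, code numbers in the library descriptions paired GREEN 1 to 5 with RED 2, RED 3, RED 4, RED 4 again and RED 5, with correlations of deviations of 0.55, 0.38, 0.74, 0.41 and -0.19. RED 4 served both GREEN 3 and GREEN 4, and RED 1 had no pair. With all 19 libraries scaled together, GREEN 3 and GREEN 4 had a correlation of 0.295. The 2 libraries of CTL 5, RED 2, RED 3 and RED 4 had 0.249 to 0.592. Whether GREEN 3 and GREEN 4 are 1 animal was not settled. GREEN and RED samples of differing code numbers had correlations from -0.577 (GREEN 1 with RED 4) to 0.54 (GREEN 1 with RED 1). Because of GREEN 5 and RED 5 the code was not taken to mark shared animals, although 4 of 5 values of the same code were above 0.1. Summed Y-linked CPM also differed between GREEN 5 and RED 5 (2.974 and 156.5). It was alike in GREEN 1 and RED 2 (12.84 and 16.69) and in GREEN 2 and RED 3 (6.552 and 7.448). The same went for GREEN 3, GREEN 4 and RED 4 (116.9, 126.4 and 140.1). A shared animal was not settled for these other pairs. The code block joins GREEN 5 with RED 5 all the same. Title numbers gave correlations of 0.54, -0.09, -0.20, 0.41 and -0.19. As a replicate block the code numbers gave 0 calls in GREEN versus RED (mitochondrial median -0.39), the title numbers 5 and 3 code pairs of experiment 2 gave 2; title numbers gave 20 in GREEN versus CTL and 0 in RED versus CTL. The code block was not run against CTL, whose libraries carry no such code. At this depth and with 5 samples per group, changes of 1 on the log2 scale were often missed on simulated data, in which far fewer genes differed than were called in the data.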
